A study of Mus musculus with 8 samples.

Results

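The LPS responses of 2 kinds of mouse macrophage were set against each other, gene by gene. For each gene the quantity was the log2 fold change with 3 h of lipopolysaccharide (LPS, from the outer membrane of Gram-negative bacteria) in cells labelled hMPDM, less the same fold change in BMDM. It was taken from the cell type and treatment labels, with no use of measured values, and covers 6 of the 8 libraries of the series. Of 43346 genes in the count table, 12461 had enough reads to be tested. BMDM are bone marrow-derived macrophages, grown here in L929-conditioned medium (a source of the growth factor M-CSF), with 2 unstimulated and 2 LPS libraries. hMPDM had 1 unstimulated and 1 LPS library. No source used here gives the mouse strain, the LPS dose, or what hMPDM stands for and how these cells were grown. The remaining 2 libraries came from the RAW 264.7 line.

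LPS is sensed by TLR4 with its partners CD14 and MD-2, and the receptor signals along an arm that activates NF-kB and MAP kinases and an arm that activates IRF3. NF-kB drives inflammatory cytokines and chemokines together with its own inhibitors, whereas IRF3 with NF-kB induces interferon beta. Secreted interferon beta then acts back on the same cells through its receptor and a transcription factor complex that binds a promoter element called the interferon-stimulated response element (ISRE) and raises the interferon-stimulated genes, many of them antiviral effectors.

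Library totals were 15671839 and 19307312 counts for unstimulated BMDM, 7977638 and 15261114 for BMDM with LPS, 15318338 for unstimulated hMPDM and 5510319 for hMPDM with LPS. All 9 macrophage markers had at least 1 CPM (counts scaled to library size and composition), with a summed level of 14798 to 15012 CPM in resting BMDM, 18482 to 19113 after LPS, and 14462 and 17672 CPM in hMPDM. Neutrophil markers, 6 of 8 at 1 CPM or more and none at 0, summed to 58.7 and 65.6 CPM in resting BMDM, 96.2 and 90.0 after LPS, and 17.4 and 28.1 in hMPDM. Osteoclast markers, 4 of 6 at 1 CPM or more with Calcr at 0, went from 8.60 and 8.57 to 35.8 and 42.4 CPM in BMDM and from 6.55 to 26.8 in hMPDM. Dendritic, mast, B, T and NK, fibroblast and erythroid marker sums were at most 3.71 CPM. The part of these markers in the results was not tested. A set of 16 genes present in BMDM and nearly absent from resting hMPDM, at 1.35% of the pooled BMDM level, stood at 10.8% of it in the hMPDM LPS library. Where taking a share of this size out of that library ended a call, the second value is given as well. The same holds where it moved a difference of responses or a list count given here by over 1.5 times. Levels are given with the share left in unless stated. Some hMPDM LPS levels fell by more than 1.5 times, such as Il12b from 83.3 to 20.3 CPM. In bulk RNA, fewer cells of a type and less RNA per cell cannot be told apart.

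The promoters of several genes named below carry the ISRE core, and 6 of them are shown. They were picked for the core from genes whose response to LPS was smaller in hMPDM by a test against a fold change of 2. Each line gives the 160 bases before the transcription start, 5′ to 3′ on the strand of the gene, from RefSeq (GRCm38.p6, the assembly also called mm10). Capitals mark the core, GAAA and GAAA with NN (any 2 bases) between them, or on the opposite strand TTTC and TTTC with NN between, and adjoining capitals are overlapping matches.
Ifit1: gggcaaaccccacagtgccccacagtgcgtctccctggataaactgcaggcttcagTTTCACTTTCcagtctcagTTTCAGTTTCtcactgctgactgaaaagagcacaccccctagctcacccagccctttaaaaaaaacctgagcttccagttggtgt
Ifit3: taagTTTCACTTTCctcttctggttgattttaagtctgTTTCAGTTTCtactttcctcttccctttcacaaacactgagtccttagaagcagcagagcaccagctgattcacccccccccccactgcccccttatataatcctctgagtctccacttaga
Isg15: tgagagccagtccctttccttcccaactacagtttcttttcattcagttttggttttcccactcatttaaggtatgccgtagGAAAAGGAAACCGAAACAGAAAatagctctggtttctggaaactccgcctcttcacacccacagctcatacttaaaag
Rsad2: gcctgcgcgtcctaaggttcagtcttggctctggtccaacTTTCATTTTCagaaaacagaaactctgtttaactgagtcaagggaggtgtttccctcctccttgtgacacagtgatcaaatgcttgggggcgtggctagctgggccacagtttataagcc
Tgtp2: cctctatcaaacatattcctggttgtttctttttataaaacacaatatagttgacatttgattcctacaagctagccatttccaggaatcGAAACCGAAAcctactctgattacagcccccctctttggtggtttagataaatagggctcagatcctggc
Ifi208: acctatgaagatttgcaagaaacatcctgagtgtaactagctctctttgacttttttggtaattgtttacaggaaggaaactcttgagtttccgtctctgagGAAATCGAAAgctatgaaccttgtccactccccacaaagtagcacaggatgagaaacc
These stretches lie at chr19:34640729-34640888 (plus strand), chr19:34583369-34583528 (plus), chr4:156200819-156200978 (minus), chr12:26456453-26456612 (minus), chr11:49064213-49064372 (minus) and chr1:173673505-173673664 (plus). Over the full windows, from 250 bases before to 50 after the start, the core was found in 1079 of the 27025 genes with a window, 3.99%. Among the 23 genes with a response smaller by more than 2-fold, 19 had a window and 8 of those held the core. Ifit2, Irf7, Oasl1, Oasl2 and Cmpk2 had a window without the core. An NF-kB-type motif, GGG then NN then TTTCC on either strand, was in the windows of 1.89% of the 27025 genes and in 1 of the 19. A match describes the letters and is not a measured site.

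The fold response of interferon-stimulated genes was smaller in hMPDM than in BMDM, from a higher starting level, and 16 of the 23 genes smaller by over 2-fold were on the lists of interferon-stimulated and interferon signalling genes. Ifit1, which binds foreign RNA ends, went from 42.6 to 2670 CPM in hMPDM and from a mean of 5.27 ± 1.11 to 2793 ± 129 CPM in BMDM (SD, n = 2). Genes with a larger response in hMPDM included the immune receptor Slamf7, the G protein regulators Rgs1 and Rgs2, and genes that LPS lowered in BMDM, such as Myc and Cxcr4. Of 29 cytokines tested, 3 (10.3%) had a smaller and 3 (10.3%) a larger response, against 3.89% and 3.96% of all genes. With the share taken out, 5 were smaller. Several of those not called, such as Il12b and Il6, had few counts at rest.

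Across all genes tested, 979 (7.86%) differed in their response at an adjusted p under 0.05 in edgeR's quasi-likelihood test, 494 with a larger (more positive) response in hMPDM (3.96%) and 485 with a smaller one (3.89%). The median difference over all genes was -0.01 on the log2 scale. Past a fold change of 2, tested directly, were 8 genes with a larger response (0.0642%) and 23 with a smaller one (0.185%). At rest, 4766 genes (38.2%) differed in level between hMPDM and BMDM, 2371 higher and 2395 lower in hMPDM. After LPS 3121 genes (25.0%) differed, 1562 higher and 1559 lower. These comparisons share libraries with the difference of responses, so each is given beside it and not as separate evidence. The spread in these tests came from the BMDM pairs alone, with a common coefficient of variation of 2.27%, and nothing in the labels says that the pairs were separate cultures. The p-values therefore rest on a spread that may be technical, and the fit takes the same spread to hold for the single hMPDM libraries. The hMPDM response itself, 1 library against 1, has no test of its own and is given as values. With a coefficient of variation of 10% set for every gene, 50 larger and 73 smaller responses were called, and all 8 and 23 genes past the fold change of 2 were among them. DESeq2 called 120 and 144, with 5 of the 8 and 19 of the 23 among them.

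**Figure D1:**
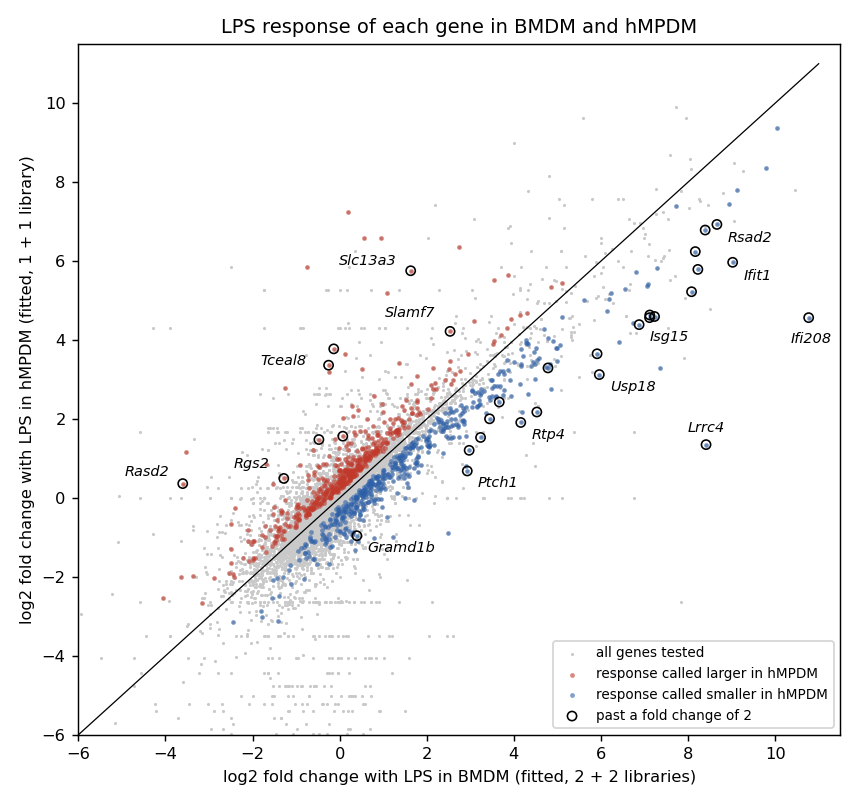
Fitted log2 fold change with LPS of each tested gene in BMDM (horizontal, 2 + 2 libraries) and in hMPDM (vertical, 1 + 1 library). Red and blue points are the 494 larger and 485 smaller responses in hMPDM, rings mark the 31 genes past a fold change of 2, and 51 uncalled genes lie outside the axes. Most rings sit below the line of equal response, at large BMDM fold changes.

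Of 96 listed interferon-stimulated genes 93 were tested, and 60 had a smaller and 1 a larger response in hMPDM, against 3.89% and 3.96% of all genes. The median difference of the list was -0.82 on the log2 scale, with a median log2 fold change of 3.94 in BMDM and 2.84 in hMPDM. The list was drawn up with earlier results of these data known. At rest, 78 of the 93 were called higher in hMPDM and 0 lower, against 2371 and 2395 of all 12461 genes, with a median log2 difference of 1.19. After LPS, 64 were called higher and 9 lower, against 1562 and 1559 of all genes, with a median of 0.36. The calls at 10% coefficient of variation held 36 of the list among the 73 smaller responses and 0 among the 50 larger.

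Among 6 RNA-binding effectors of the IFIT family 4 had a smaller and 0 a larger response, and 2 were not called. Ifit1 (ENSMUSG00000034459.8, chromosome 19, 34640871 to 34650009, mm10) had 4.48 and 6.06 CPM in resting BMDM, 2884 and 2702 CPM after LPS, and 42.6 and 2670 CPM in hMPDM at rest and after LPS. The hMPDM library stood above both BMDM libraries at rest and below both after LPS. The difference of responses was -3.06 ± 0.13 on the log2 scale (SE, adjusted p = 1.0e-16 in edgeR), and the levels after LPS did not differ past the test (log2 difference -0.06, adjusted p = 0.36).
Ifit2 went from 10.5 and 11.2 to 3373 and 3156 CPM in BMDM and from 82.1 to 4541 CPM in hMPDM, a difference of responses of -2.44 ± 0.10. Ifit3 went from 2.39 and 2.47 to 387 and 352 CPM in BMDM and from 32.6 to 788 CPM in hMPDM, a difference of -2.63 ± 0.16. Both were higher in hMPDM in each state, and the gap was wider at rest. Ifit3b, a near-identical neighbour of Ifit3 with which it may share reads, had a difference of -2.49 ± 0.31.

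The oligoadenylate system, which senses double-stranded RNA, followed with 7 of 9 genes smaller. Oasl2 went from 17.4 and 19.1 to 449 and 402 CPM in BMDM and from 130.6 to 591 CPM in hMPDM (difference -2.35 ± 0.10). Oasl1, which in mice restrains translation of Irf7, went from 2.15 and 2.52 to 645 and 637 CPM in BMDM and from 11.4 to 425 CPM in hMPDM (difference -2.86 ± 0.18). Oasl1 thus ended lower in hMPDM, with a log2 difference of -0.59 after LPS (adjusted p = 8.3e-11), while Oasl2 ended higher, at 0.48.

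In the ISG15 system, which attaches a ubiquitin-like protein to targets, 4 of 5 genes had a smaller response. Isg15 itself (ENSMUSG00000035692.6, chromosome 4, 156199424 to 156200818, mm10) had 4.78 and 5.04 CPM in resting BMDM, 581 and 579 after LPS, and 29.8 and 626 CPM in hMPDM. The difference was -2.49 ± 0.12, and after LPS the cell types did not differ past the test (log2 difference 0.11, adjusted p = 0.087). Usp18, the protease that removes ISG15 and dampens the interferon receptor, went from 4.84 and 4.99 to 315 and 302 CPM in BMDM and from 59.1 to 516 CPM in hMPDM. Its difference was -2.84 ± 0.11 (adjusted p = 4.8e-17), with levels in hMPDM above BMDM in both states.

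**Figure D2:**
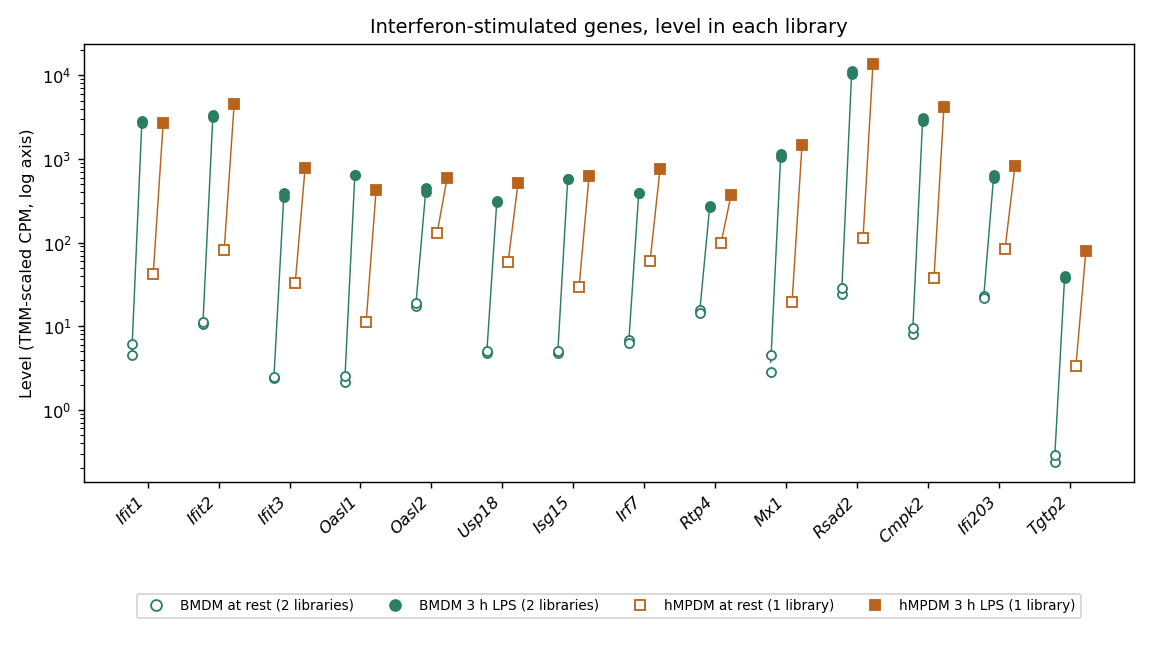
Level of 14 genes from the interferon lists in each of the 6 libraries, as scaled CPM on a log axis. Open symbols are unstimulated and filled symbols LPS libraries, circles BMDM (2 per state) and squares hMPDM (1 per state), with a line joining the group means. Every gene shown started higher in hMPDM, and the filled symbols lie closer together than the open ones.

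Among 28 antiviral effectors 15 had a smaller and 0 a larger response. Rsad2, which encodes viperin, went from 24.3 and 28.4 to 11166 and 10374 CPM in BMDM and from 112.6 to 13723 CPM in hMPDM (difference -1.73 ± 0.09). Cmpk2, a mitochondrial nucleotide kinase encoded beside it, went from 8.07 and 9.54 to 3134 and 2851 CPM in BMDM and from 38.1 to 4209 CPM in hMPDM (difference -1.61 ± 0.13). Both genes ended higher in hMPDM although their fold change was smaller there. Mx1, a dynamin-like antiviral GTPase, went from 2.87 and 4.55 to 1148 and 1046 CPM in BMDM and from 19.2 to 1455 CPM in hMPDM (difference -1.93 ± 0.18). Rtp4, an interferon-induced transporter chaperone, had 15.8 and 14.6, then 276 and 267 CPM in BMDM and 98.6, then 371 CPM in hMPDM (difference -2.25 ± 0.09). Rnf213, a very large ubiquitin ligase that was on no list, had a milder difference, -1.23 ± 0.06, with 317 and 307, then 4024 and 3896 CPM in BMDM and 947, then 5106 CPM in hMPDM.

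The GTPases (9 of 14 smaller, 0 larger) and nucleic acid sensors (20 of 28 smaller, 0 larger) included genes almost silent at rest. Tgtp2, an immunity-related GTPase, went from 0.239 and 0.291 to 40.2 and 37.9 CPM in BMDM and from 3.37 to 80.1 CPM in hMPDM (difference -2.55 ± 0.40). Ifi203, a DNA sensor of the Ifi200 family, went from 23.2 and 21.6 to 649 and 588 CPM in BMDM and from 83.5 to 819 CPM in hMPDM (difference -1.49 ± 0.09). Ifi208 of the same family had 0 counts in both resting BMDM libraries, 20.7 and 19.9 CPM after LPS, and 0.541 and 13.1 CPM in hMPDM. Against a floor of 3 counts over the resting BMDM pair, the BMDM level after LPS was 252-fold higher, with a lower 95% counting limit of 204. The hMPDM ratio was 24.2 (95% counting interval 11.9 to 55.5). Ifi213 had 2 counts in resting BMDM in all, so its BMDM ratio of 200 has a 95% counting interval of 54.6 to 1661, against 9.98 (4.28 to 25.9) in hMPDM. Ifi200 genes are similar in sequence, and how reads were divided among them was not tested.

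**Figure D3:**
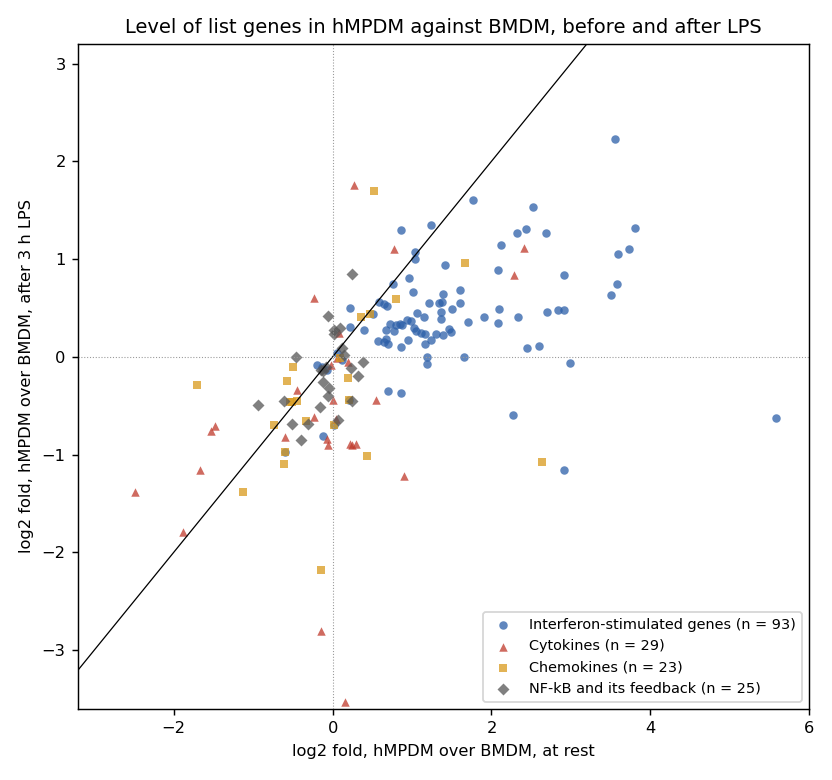
Log2 fold of hMPDM over BMDM at rest (horizontal) and after LPS (vertical) for interferon-stimulated genes, cytokines, chemokines and NF-kB genes, with 2 genes outside the axes. The difference of responses is the height above or below the diagonal, and 86 of 93 interferon-stimulated genes lie below it, mostly to the right of 0.

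Interferon signalling genes gave 8 smaller and 2 larger responses among 24 tested. Irf7, the transcription factor that amplifies type I interferon, had 6.81 and 6.25 CPM in resting BMDM, 388 and 395 after LPS, and 60.5 and 760 CPM in hMPDM. Its level in hMPDM was above both BMDM libraries in each state, with a difference of responses of -2.26 ± 0.11 (adjusted p = 1.5e-15). Socs3, a feedback inhibitor of cytokine receptors, was higher in hMPDM at rest and lower after LPS: 3.29 and 4.02 to 587 and 566 CPM in BMDM, 5.95 to 339 CPM in hMPDM (difference -1.45 ± 0.20). The kinase Tyk2 (0.28 ± 0.08) and the phosphatase Ptpn6 (0.29 ± 0.07) had the larger responses. Of the ligand itself, Ifnb1, no read was counted at rest in either cell type, and it reached 2.72 and 3.32 CPM in BMDM and 3.71 CPM (17 counts) in hMPDM. At that depth a difference in Ifnb1 was not detectable.

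Upstream, among 30 TLR4 signalling genes 5 had a larger and 4 a smaller response, with a median difference of 0.08. Tlr4 went from 103.2 and 100.9 to 75.4 and 71.9 CPM in BMDM and from 148 to 114 CPM in hMPDM, and its responses did not differ past the test (0.10 ± 0.09, adjusted p = 0.67, and 0.16 with the share taken out). Cd14, the LPS co-receptor, went from 391 and 395 to 2354 and 2448 CPM in BMDM and from 166 to 1310 CPM in hMPDM, so it was lower in hMPDM throughout, with a slightly larger fold response (0.37 ± 0.07, adjusted p = 0.00022, and 0.21, adjusted p = 0.040, with the share taken out). Irak2, a kinase of the MyD88 complex, went from 53.3 and 55.6 to 248 and 249 CPM in BMDM and from 36.9 to 278 CPM in hMPDM (0.72 ± 0.09). Ikbke, a kinase that acts on IRF3, also had a larger response in hMPDM (0.47 ± 0.07). Mapk14, the p38 alpha kinase, moved in opposite directions, up from 132.5 and 132.8 to 182 and 178 CPM in BMDM and down from 167 to 116 CPM in hMPDM (-0.97 ± 0.09). The adaptor gene Traf3 (-0.43 ± 0.12) had a smaller response, and so did Ikbkg (-0.36 ± 0.10).

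Among 25 genes of NF-kB and its feedback 9 had a smaller and 2 a larger response, with a median difference of -0.12. Tnfaip2, an NF-kB target, had like levels at rest and ended lower in hMPDM, going from 450 and 427 to 5124 and 5133 CPM in BMDM and from 458 to 3272 CPM in hMPDM (-0.71 ± 0.06). The inhibitor gene Nfkbie (-0.70 ± 0.13), the subunit gene Nfkb2 (-0.51 ± 0.08), Nfkbia (-0.38 ± 0.08) and Tnfaip3, which encodes A20 (-0.28 ± 0.08, adjusted p = 0.037), were smaller as well. Zfp36, whose protein speeds the decay of cytokine mRNAs, had a larger response in hMPDM, from 52.8 to 488 CPM against 71.0 and 73.8 to 488 and 491 CPM in BMDM (0.45 ± 0.08), and reached the BMDM level. Tnip3, an A20-binding protein, was the other larger response (0.48 ± 0.11).

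Cytokines gave 3 smaller (5 with the share taken out) and 3 larger responses among 29 tested, with a median difference of -0.38. Each direction held 10.3% of the list, against 3.89% of all genes smaller and 3.96% larger. Csf1, the M-CSF gene, had 56.5 and 62.8 CPM in resting BMDM, 650 and 653 after LPS, and 291 and 1166 CPM in hMPDM. It was higher in hMPDM in both states, with a smaller fold response (-1.44 ± 0.07, adjusted p = 4.2e-15). Tnfsf9, the 4-1BB ligand, began level (17.1 and 17.4 against 16.6 CPM) and reached 127 and 119 CPM in BMDM and 65.5 CPM in hMPDM (-0.85 ± 0.14). Il27, a cytokine subunit, was also smaller (-1.15 ± 0.36, adjusted p = 0.044). The interleukin 1 receptor antagonist Il1rn had a larger response in hMPDM from a lower start, 87.9 and 92.2 to 397 and 376 CPM in BMDM and 32.4 to 236 CPM in hMPDM (0.77 ± 0.10). The growth factor genes Vegfa (0.78 ± 0.14), which fell in BMDM, and Igf1 (0.52 ± 0.07, and 0.28 with the share taken out) made up the 3.

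After LPS, 14 of the 29 cytokines were called lower and 4 higher in hMPDM, against 1559 and 1562 of all 12461 genes. The classical inflammatory cytokines, however, had no called difference of responses. Tnf went from 50.0 and 47.6 to 2845 and 2719 CPM in BMDM and from 32.1 to 1571 CPM in hMPDM (difference -0.22 ± 0.09, adjusted p = 0.18). Taking the 10.8% share out of the hMPDM LPS library made that -0.37 (adjusted p = 0.0093). Il1b went from 2.15 and 1.45 to 555 and 553 CPM in BMDM and from 1.68 to 310 CPM in hMPDM (-0.77 ± 0.34, adjusted p = 0.21). Il12b, the subunit shared by IL-12 and IL-23, differed widely after LPS, 608 and 561 CPM in BMDM against 83.3 CPM in hMPDM, a log2 difference of -2.81 (adjusted p = 3.2e-21). Its resting levels, 0.658, 0.194 and 0.361 CPM, rested on 15 counts in BMDM and 6 in hMPDM, and the difference of responses of -2.65 ± 0.91 missed the threshold (adjusted p = 0.075). With the share taken out it was -4.53 (adjusted p = 0.0033). Il6 (-0.99), Il10 (-1.19), Nos2 (-0.56) and Ptgs2 (-1.04) did not pass the test either, each with fewer than 3 CPM at rest.

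Of 23 chemokines tested, 4 had a smaller and 2 a larger response. Ccl5, which attracts T cells, began at 1.43 and 1.74 CPM in BMDM and 2.16 CPM in hMPDM and reached 1438 and 1437 CPM against 713 CPM (-1.44 ± 0.31, adjusted p = 0.0022). Cxcl10, a ligand of CXCR3, went from 7.23 and 6.54 to 7286 and 7140 CPM in BMDM and from 7.93 to 5305 CPM in hMPDM (-0.65 ± 0.16). Both started close together and ended lower in hMPDM. Ccl3 was slightly smaller (-0.41 ± 0.07), Ccl4 (0.33 ± 0.08) and Cxcl16 (0.40 ± 0.11) slightly larger. The list of nitric oxide, itaconate and prostaglandin synthesis had 4 smaller and 0 larger responses among 26, and 7 smaller with the share taken out. Of the 4 called, Ltc4s, the leukotriene C4 synthase, was the farthest from 0 at -0.91 ± 0.24. Acod1, which makes itaconate, went from 38.5 and 34.1 to 7647 and 7658 CPM in BMDM and from 34.0 to 5765 CPM in hMPDM (-0.32 ± 0.10, adjusted p = 0.034).

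**Figure D4:**
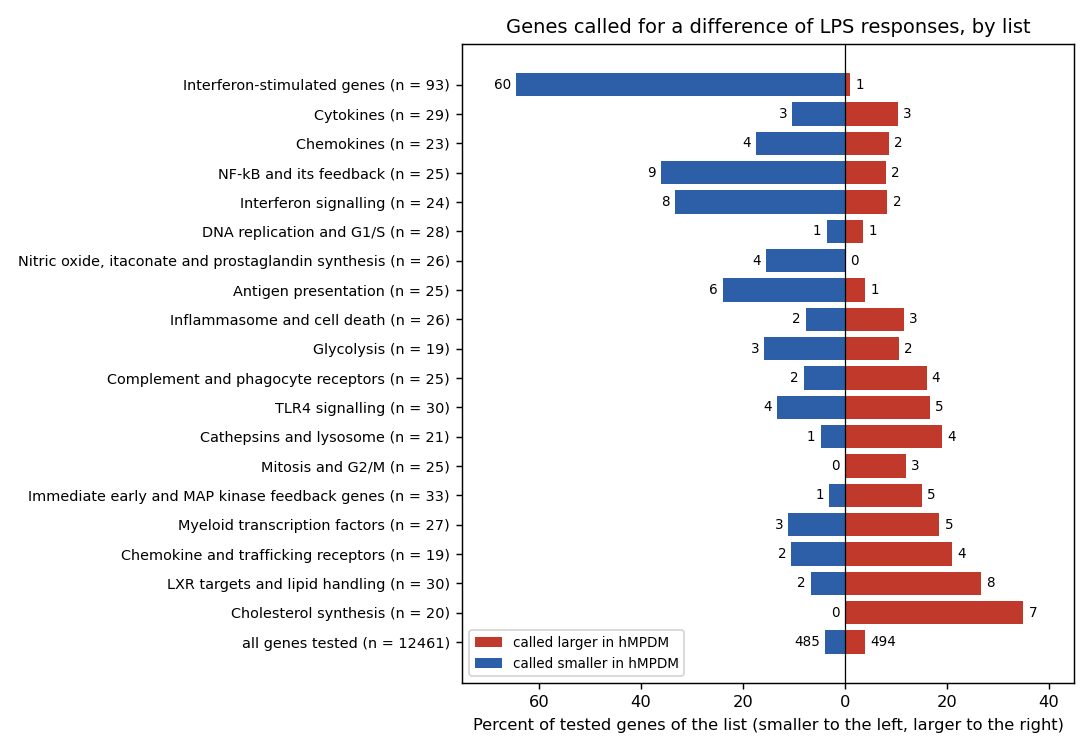
Percent of the tested genes of each list called with a smaller (left, blue) or larger (right, red) response in hMPDM, with the number of genes at each bar end and all 12461 tested genes at the bottom. Interferon-stimulated genes, with 60 of 93 smaller, reach farthest to the left and cholesterol synthesis, with 7 of 20 larger, farthest to the right.

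Apart from Rnf213, 6 genes outside the interferon lists had a response smaller by over 2-fold, and they fell into separate patterns. Ptch1, the Hedgehog receptor, began level at 6.58 and 6.88 CPM in BMDM and 7.33 CPM in hMPDM, and reached 56.5 and 48.5 CPM against 11.8 CPM (-2.25 ± 0.26, adjusted p = 2.0e-07). With the share taken out, Ptch1 stood at 6.11 CPM in the hMPDM LPS library, below its resting level, and the difference was -3.03. Gramd1b, which moves cholesterol from the plasma membrane to the endoplasmic reticulum, went up from 395 and 397 to 536 and 509 CPM in BMDM and down from 559 to 288 CPM in hMPDM (-1.35 ± 0.07). Nupr1, a stress-induced nuclear protein, went from 10.6 and 11.7 to 86.3 and 88.9 CPM in BMDM and from 30.5 to 70.5 CPM in hMPDM (-1.77 ± 0.13). Calcrl, part of the receptors for adrenomedullin and CGRP, had a like course from 18.5 and 17.7 to 179 and 164 CPM in BMDM and from 51.2 to 148 CPM in hMPDM (-1.70 ± 0.11). Nupr1 and Calcrl were thus higher in hMPDM at rest and lower after LPS. Lrrc4, known as a synaptic adhesion protein, had 0 counts in both resting BMDM libraries, 3.63 and 4.11 CPM after LPS, and 0.421 and 1.09 CPM (7 and 5 counts) in hMPDM. Against a floor of 3 counts over the resting pair, the BMDM level after LPS was 49.1-fold higher, with a lower 95% counting limit of 39.0. The hMPDM ratio was 2.59 (95% counting interval 0.649 to 9.49). Csf1 is the sixth.

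Larger responses took 3 forms, the first being a higher level after LPS in hMPDM of a gene that changed little or fell in BMDM. Rgs1, which shortens G protein signals, had 222 and 237 CPM in resting BMDM, 249 and 237 after LPS, and went from 159 to 470 CPM in hMPDM (1.49 ± 0.08, adjusted p = 6.0e-15). Rgs2 fell from 137 and 140 to 62.1 and 53.9 CPM in BMDM and went up from 128 to 180 CPM in hMPDM (1.78 ± 0.10). The hMPDM LPS library stood above all other 5 libraries for both. Of the called genes with at least 5 CPM in a group whose responses had opposite signs, each at least 0.5 in size on the log2 scale, 6 of 7 fell in BMDM and went up in hMPDM. They included Fos, an AP-1 subunit (1.30 ± 0.19), Tent5c, a poly(A) polymerase (1.17 ± 0.10), the myosin gene Myo1e (1.23 ± 0.12), Rilpl1 (1.75 ± 0.37), Tanc2 (1.82 ± 0.29, and 1.15 with the share taken out), and Dio2, a thyroid hormone-activating enzyme (2.56 ± 0.47).

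The second form was a weaker fall. Cxcr4, the receptor for CXCL12, went from 111.2 and 119.4 to 6.80 and 7.04 CPM in BMDM and from 68.6 to 11.8 CPM in hMPDM (1.51 ± 0.26, adjusted p = 0.00012). Myc went from 48.1 and 52.2 to 8.01 and 9.41 CPM in BMDM and from 32.2 to 13.1 CPM in hMPDM (1.20 ± 0.24). In both genes hMPDM was the lower cell type at rest and the higher after LPS. Gpr183, the oxysterol receptor, went from 23.9 and 25.6 to 2.12 and 1.90 CPM in BMDM and from 20.1 to 5.02 CPM in hMPDM (1.64 ± 0.40). Pparg, a lipid-sensing nuclear receptor, went from 16.7 and 17.1 to 5.74 and 6.09 CPM in BMDM against 18.8 to 16.1 CPM in hMPDM (1.28 ± 0.24). Id2, an inhibitor of helix-loop-helix factors (0.97 ± 0.07), and Trib3, a stress-induced pseudokinase (1.21 ± 0.18), had larger responses too. Rasd2, a Ras-like GTPase, did not fall in hMPDM and so belongs with the first form. It went from 6.04 and 6.78 to 0.907 and 0.316 CPM in BMDM, 10 counts in all. In hMPDM it stood at 1.86 and 2.40 CPM (31 and 11 counts), a difference of responses of 3.97 ± 0.75 (adjusted p = 0.00050).

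The third form was a steeper climb, for most from a lower start. Slamf7 (ENSMUSG00000038179.9, chromosome 1, 171632403 to 171653035, mm10) had 189 and 181 CPM in resting BMDM, 1082 and 1066 after LPS, and 27.6 and 514 CPM in hMPDM. It was lower in hMPDM in both states, with a response larger by 1.68 ± 0.09 on the log2 scale (adjusted p = 1.0e-14). Slc13a3, a sodium-coupled dicarboxylate transporter, went from 1.26 and 1.45 to 3.78 and 4.51 CPM in BMDM and from 0.421 to 23.3 CPM in hMPDM (7 and 107 counts). It crossed from below BMDM to above it, the largest of the 8 differences (4.12 ± 0.50, adjusted p = 6.0e-07). Lpl, lipoprotein lipase, was almost flat in BMDM, 800 and 800 to 888 and 941 CPM, and went from 144 to 376 CPM in hMPDM (1.19 ± 0.07, or 0.91 with the share taken out). C3, the central complement protein, was higher in hMPDM throughout and had a larger response, from 15.8 and 16.8 to 469 and 472 CPM in BMDM and from 34.7 to 1421 CPM in hMPDM (0.50 ± 0.10).

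**Figure D5:**
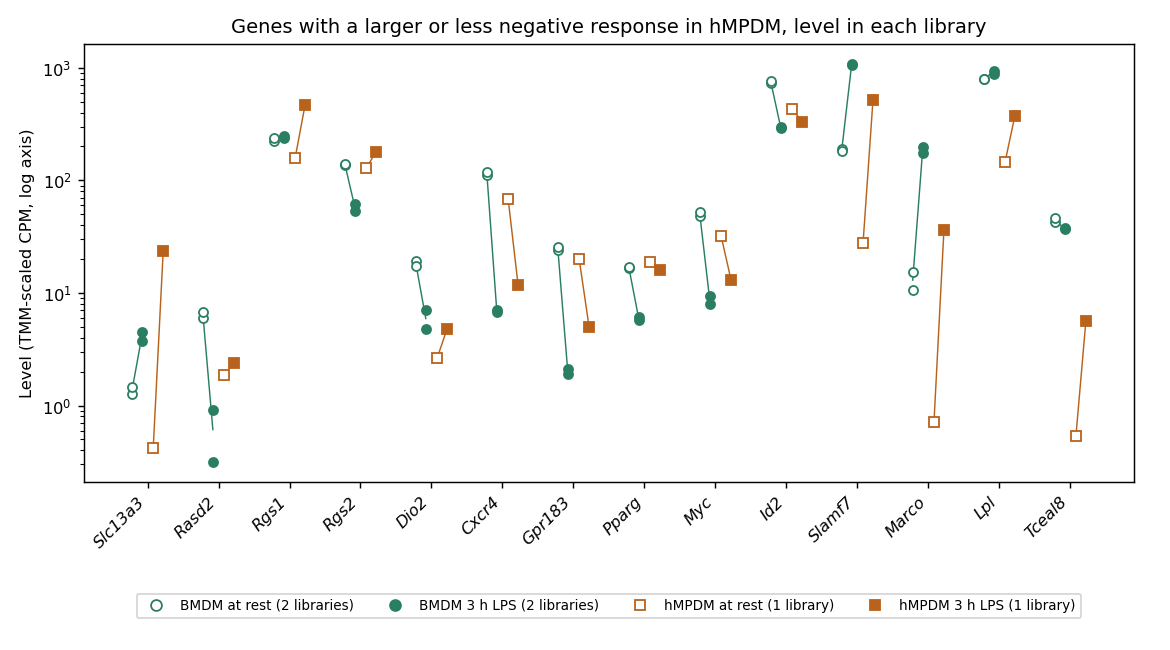
Level of 14 genes with a larger or less negative response in hMPDM, in each of the 6 libraries, as scaled CPM on a log axis with symbols as in the plot of interferon-stimulated genes. Rgs2 runs down in BMDM and up in hMPDM, the lines of Cxcr4, Gpr183, Myc and Id2 fall less steeply in hMPDM, and those of Slamf7, Marco and Lpl climb from a lower level.

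Several larger responses rest on genes close to silent in resting hMPDM, and these move with the 10.8% share. Tceal8 had 42.8 and 46.0, then 37.0 and 37.5 CPM in BMDM and 0.541, then 5.67 CPM in hMPDM (9 and 26 counts), a larger response of 3.62 ± 0.49 that was 2.08 (adjusted p = 0.066) with the share taken out. Sel1l3 had 51.4 and 52.6, then 44.3 and 49.2 CPM in BMDM, and 3 and 12 counts in hMPDM, a ratio of 14.5 (95% counting interval 3.92 to 80.2), with a difference of 3.91. Ly86, which encodes the TLR-associated protein MD-1, had 20.9 and 20.3, then 23.0 and 22.1 CPM in BMDM, and 3 and 11 counts in hMPDM, a ratio of 13.3 (3.52 to 74.3), with a difference of 3.52. Tceal8, Sel1l3 and Ly86 are among the 16 genes that set the share, at 15.2%, 5.60% and 10.6% of the BMDM level after LPS. Their changes with the share taken out therefore follow in part from its construction. For Sel1l3 and Ly86, taking it out left 0 counts in the hMPDM LPS library and no value to compare. Marco went from 15.3 and 10.7 to 174 and 197 CPM in BMDM and from 0.721 to 36.4 CPM in hMPDM (1.76 ± 0.47), and was 0.77 (adjusted p = 0.48) with the share out. Apoe, the main apolipoprotein of macrophages, went from 0.70 ± 0.14 to 0.04 (adjusted p = 0.95). Nes, an intermediate filament gene, had 65.7 and 66.7, then 48.7 and 47.0 CPM in BMDM and 4.69, then 13.1 CPM in hMPDM, and went from 1.96 ± 0.26 to 1.38 with its call kept. Of the 16 genes that set the share, 9 were called larger and 0 smaller, against 3.96% and 3.89% of all genes. They were picked for their low level in resting hMPDM, which left little room for a fall. The direction of these calls therefore follows in part from the pick and is not a result about the genes. Their levels in the hMPDM LPS library were 1.46% to 22.2% of the BMDM level. The source of these reads was not tested.

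All 20 cholesterol synthesis genes were called higher in hMPDM in both states, against 2371 of all 12461 genes at rest and 1562 after LPS. Their median log2 differences were 0.97 at rest and 1.14 after LPS, and 7 of 20 had a larger response and 0 a smaller one. Their differences of responses were slight. Sc5d went from 99.5 and 100.4 to 91.6 and 92.2 CPM in BMDM and from 162 to 218 CPM in hMPDM (0.55 ± 0.08), and Lss (0.35 ± 0.09) was larger as well. In the list of LXR targets and lipid handling 8 of 30 were larger and 2 smaller (1 with the share taken out). Abca1, the cholesterol exporter, was higher in hMPDM throughout, 286 and 282 to 411 and 428 CPM in BMDM and 721 to 875 CPM in hMPDM, with a smaller fold (-0.29 ± 0.06). Srebf1 (-0.32 ± 0.10) was the other smaller one, and with the share taken out it was no longer called (adjusted p = 0.071). At 10% coefficient of variation 0 of the 20 cholesterol synthesis genes were called.

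Among 25 complement and phagocyte receptor genes 4 were larger and 2 smaller (1 with the share taken out), with the inhibitory Fc receptor Fcgr2b at -0.94 ± 0.06 (250 and 245 to 808 and 813 CPM in BMDM, 509 to 868 CPM in hMPDM). Among 19 chemokine and trafficking receptors 4 were larger, with the prostaglandin receptor Ptger4 (1.41 ± 0.32) beside Cxcr4 and Gpr183, and 2 smaller, the prostanoid receptors Ptgir (-0.86 ± 0.12) and Ptger2 (-0.77 ± 0.20). Of 25 antigen presentation genes 6 were smaller and 1 larger (2 with the share taken out). Ciita, the master regulator of MHC class II, had 2.75 and 2.62, then 20.6 and 19.8 CPM in BMDM and 3.97, then 11.8 CPM in hMPDM (-1.33 ± 0.30), and it overlaps the gene Dexi. The peptide transporter gene Tap1 was smaller (-0.62 ± 0.08) and overlaps Psmb9, and Cd274, the PD-L1 gene, was the larger one (0.40 ± 0.07).

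In the remaining lists the share called larger ran from 3.57% to 19.0%, against 3.96% of all genes. Immediate early and MAP kinase feedback genes had 5 larger (15.2%) and 1 smaller of 33 (3 smaller with the share taken out), the smaller one being the ERK phosphatase Dusp6 (-0.69 ± 0.17). Myeloid transcription factors had 5 larger (18.5%) and 3 smaller of 27, with Id3 (-0.89 ± 0.15), Mitf (-0.65 ± 0.11) and Tfec (-0.54 ± 0.10) smaller. Inflammasome and cell death genes had 3 larger, among them Casp1 (0.32 ± 0.08), and 2 smaller, Casp4 (-0.51 ± 0.10) and Cflar (-0.49 ± 0.07), of 26. Cathepsins and lysosome genes had 4 larger (19.0%) and 1 smaller of 21, the smaller being Ctsc (-0.67 ± 0.06). Glycolysis had 2 larger (1 with the share taken out) and 3 smaller of 19. Hk2, a hexokinase, began level and ended lower in hMPDM, 81.5 and 76.3 to 235.5 and 241 CPM in BMDM against 86.7 to 127 CPM (-1.05 ± 0.09), and Hif1a was smaller too (-0.46 ± 0.08). DNA replication and G1/S genes had 1 larger and 1 smaller of 28 (3 smaller with the share taken out), and mitosis and G2/M genes 3 larger (12.0%) and 0 smaller of 25 (1 smaller with the share taken out).

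A difference of fold changes is not a difference of added transcripts. In CPM, Rsad2 gained 10744 in BMDM and 13611 in hMPDM, so the gain was greater by 2867 in hMPDM although the fold was smaller. The same held for Ifit2 (greater by 1206 CPM) and Cmpk2 (greater by 1187 CPM), but not for every interferon-stimulated gene. For Ifit1 and Oasl1 the gain in hMPDM less that in BMDM was -160 and -225 CPM. Among genes with a larger fold, C3 gained 931 CPM more in hMPDM, and Thbs1, a matrix glycoprotein lowered by LPS in BMDM, lost 813 CPM less. Where resting levels were alike, both scales gave hMPDM the lesser gain. Sqstm1, the autophagy receptor p62, gained 5336 CPM in BMDM and 3155 in hMPDM. The gain in hMPDM less that in BMDM was -1910 CPM for Cxcl10, -1886 for Acod1 and -1875 for Tnfaip2. It was -1048 CPM for the antioxidant enzyme Prdx1, which was lower in hMPDM at rest and had a log2 difference of -0.47 ± 0.06 (-0.72 with the share taken out). These gains are descriptions of level with no test.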

How the data were processed

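Polyadenylated RNA was sequenced from unstimulated cells (0 h) and after 3 h LPS, and libraries were made with a stranded kit, per the labels' protocols. The values deposited by the authors are raw read counts of genes, without normalization. Tools named in the submitters' processing notes are featureCounts, STAR, cutadapt, bedtools and SAMtools, without versions, with mm10 as the build. Of 10 value columns, 8 matched a sample by name and 2 were not used. Symbols (42462 of 43346 identifiers) came from a reference list and gene spans from the table.

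Counts were analysed in edgeR 4.0.16 (R 4.3.3): filterByExpr, TMM scaling, and a quasi-likelihood fit of all 8 libraries with 1 coefficient per group and 2 residual degrees of freedom. Adjusted p-values (Benjamini-Hochberg over 12461 genes) were called at 0.05, and glmTreat tested a fold change of 2. An SE is the log2 value divided by the square root of F, and can fall below counting error for genes with few counts. Levels are TMM-scaled CPM. A count of 0 allows up to 3 counts, 0.155 to 0.544 CPM in the 6 libraries, and floors and intervals (95%, exact) cover counting error only. No label gives a batch. Deviations of BMDM libraries with the same replicate number had a correlation of -0.03 over all tested genes. Counting error weakens such a correlation, so it cannot show whether the numbers mark pairs. They were not used as pairs in the main fit. The comparison, the gene lists and the rule for naming genes were chosen with earlier results of these data known. That rule took every gene past the fold change of 2, the 3 largest called per list and direction, the 6 largest of opposite sign, the 5 largest changes in CPM per direction (each with at least 5 CPM in a group) and a set of anchor genes, 134 in all. Alternatives were DESeq2 1.42.0, other scalings and filters, robust moderation, fixed coefficients of variation, the 6 libraries without RAW 264.7, a replicate block, leaving out each BMDM library, and taking out of the hMPDM LPS counts the share described above. That share is the level, relative to BMDM LPS, of genes that reach 5 CPM in resting and LPS BMDM and hold at most 5% of the BMDM level in resting hMPDM. Promoter windows matched too few of all called genes for a motif share, which is given for the 23 genes smaller past the fold change of 2 and for all genes with a window. The code was tested on simulated data. Some named genes are not reported here.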

Additional observations from a re-analysis of the deposited data

Results flagged for a closer look

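The LPS response differed between hMPDM and BMDM by a direct test of the difference for 494 genes with a larger and 485 with a smaller response in hMPDM, and for 8 and 23 genes past a fold change of 2. On the log2 scale, hMPDM minus BMDM, the smaller responses on the interferon lists were Ifit1 -3.06, Oasl1 -2.86, Usp18 -2.84, Ifit3 -2.63, Tgtp2 -2.55, Ifit3b -2.49, Isg15 -2.49, Ifit2 -2.44, Oasl2 -2.35, Irf7 -2.26, Rtp4 -2.25, Mx1 -1.93, Rsad2 -1.73, Cmpk2 -1.61 and Ifi203 -1.49. Ifi208 was -3.38 against a floor of 3 counts, since resting BMDM held no counts. The other smaller responses were Lrrc4 with -4.24 against the same floor, Ptch1 -2.25, Nupr1 -1.77, Calcrl -1.70, Csf1 -1.44, Gramd1b -1.35 and Rnf213 -1.23. The larger responses were Slc13a3 4.12, Rasd2 3.97, Sel1l3 3.91, Tceal8 3.62, Nes 1.96, Rgs2 1.78, Slamf7 1.68 and Rgs1 1.49. Each rests on 1 hMPDM library per state, and Sel1l3 on 3 counts in resting hMPDM. The values against a floor leave out the counting error of the hMPDM libraries and are no bound.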

How the results depend on the processing

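DESeq2 called 120 larger and 144 smaller responses (3 and 11 past a fold change of 2). With a coefficient of variation of 10% for every gene there were 50 and 73 (5 and 14, with 36 interferon-stimulated genes smaller), and with 20% there were 5 and 14 (1 and 3, with 10 interferon-stimulated genes smaller). The fixed coefficients set a wider spread than the BMDM pairs gave, and for DESeq2 the cause was not tested. With the replicate block there were 455 and 498 (10 and 23, with 62 interferon-stimulated genes smaller). Leaving out each BMDM library gave 430 to 540 larger and 460 to 552 smaller responses (9 to 12 and 19 to 28 past the fold change). Taking the share out of the hMPDM LPS library gave 506 and 581. It left 0 counts of Ly86 and Sel1l3, which helped to set the share, so that their fitted values of -4.17 and -3.91, both uncalled, follow from its construction. It ended 10 further calls among the 125 named genes called, Tceal8, Marco and Apoe among them. Tceal8 also helped to set the share, so its change follows in part from the construction. Of those 125 genes 51 kept their call at 10% and 17 at 20%. Other scalings, filters, robust moderation and the fit without RAW 264.7 ended at most 4 of those calls each. Depth limits genes with few counts at rest, such as Il12b, Il6 and Ifnb1.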
